A study of Mus musculus with 2 samples.

Results

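Platelet-lineage genes encode the adhesive proteins, surface receptors and chemokines that megakaryocytes load into platelets, and 10 of them were examined in long-term hematopoietic stem cells (LT-HSCs) of old mice. They are *Vwf*, *Mmrn1*, *Selp*, *Itgb3*, *Gp1bb*, *Gp9*, *Gp5*, *Gp6*, *Pf4* and *Ppbp*, and they were taken by name, with earlier results of these data known. All probes carrying one of these names, with case ignored and control spots left out, were taken. The 10 genes were covered by 15 of the 55662 probes that were used, and all 10 belonged to the 17198 named genes whose signal stood well above background on one array or both. *Vwf*, *Mmrn1*, *Selp* and *Itgb3* are in the study's list of aged HSC markers, the other 6 genes are not, and none of the 10 is in its list of young HSC markers.

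The study asked how loss of p38α, a stress-activated kinase, affects HSCs during physiological aging. LT-HSCs were sorted from bone marrow of C57BL/6J mice at 2 years of age, and their RNA was hybridized to single-colour arrays, 1 array for each genotype and both on the same slide. The p38αΔ/Δ mice carried CAG-CreERT2, a tamoxifen (TAM)-inducible Cre under a ubiquitous promoter, with p38α fl/fl alleles and had been given TAM roughly a year before analysis. The controls, called p38α+/+ here and wild-type in the sample labels, were TAM-injected Cre(−) p38α fl/fl mice of the same age, so that both groups shared the floxed alleles and the drug. Because Cre was not confined to blood cells, the deletion was not restricted to HSCs, and the number of mice behind each array is not given in the sources used here. The sort gate in the sample labels is CD150+CD48-Flt3-CD34- LSK (lineage-negative, Sca-1+, c-Kit+). The methods add CD41-, whereas the series description names only CD34 and Flt3 besides LSK. CD41 is the integrin encoded by *Itga2b*, the partner of *Itgb3* on platelets, so this difference in the gate bears on the cells examined here.

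Platelets stop bleeding by tethering to exposed vessel wall, changing shape and releasing granules. The tether is formed by the GPIb-IX-V complex, which grips von Willebrand factor, while GPVI binds collagen and αIIbβ3 binds fibrinogen to join platelets to one another. Transcripts of several of these genes are also present in HSCs, where they mark cells biased toward the platelet lineage, and such cells are known to become more frequent with age in mice.

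Each array reports 1 brightness value for each spot. A scaled log2 level below is the log2 of the background-subtracted signal minus the array's own 75th percentile over all probes, so that 0 is the 75th percentile of that array. Levels are compared only for the same probe between the arrays. Where levels are summed over the genes of a list, in unlogged multiples of the 75th percentile, the sum weighs each gene by the brightness of its probe, and the value without the gene that adds most is given beside it. A log2 difference is the level on the array labelled p38αΔ/Δ minus that on the p38α+/+ array. With 1 array for each genotype no difference can be checked against a replicate, and none carries a p-value. The only errors to be had are those within an array. Probes printed at least 5 times (276 of them) gave an SD of 0.13 for the difference between a pair of single spots, and 0.31 for the 75 dim ones with a scaled log2 level below −2. The scanner software's own error of a member probe's log2 difference ran from 0.20 to 0.40. None of these errors covers the spread between mice.

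*Mapk14*, which encodes p38α, is the targeted gene. Its brighter probe (mm9 chr17:28885290-28885349) had signals of 728 (p38α+/+) and 569, which gave scaled log2 levels of 2.34 and 2.31 and a log2 difference of −0.04. The second probe differed by −0.05. Both differences are below the spot SD of 0.13, and whether either probe lies in the deleted part of the gene was not tested. The *Mapk14* probes thus cannot check the labels in either direction. The second array is therefore called the array labelled p38αΔ/Δ, and every direction below rests on that label.

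For 4 of the 10 genes the array holds several probes, which do not read the same stretch of RNA, and the results turn on which of them is used. The probes of *Vwf* and of *Mmrn1* lie far apart, and the 3 *Gp1bb* probes sit within 670 bases of each other. The first 30 of the 60 bases of each are shown for that reason, with the single probes of *Selp*, *Gp5* and *Gp6*, whose values matter most below. They are written 5′ to 3′ in the sense of the transcript, and no base is marked.
Vwf probe 1, chr6:125636551-125636610: caagtgaggcctgtgcagctacagcggatt
Vwf probe 2, chr6:125542106-125542165: tagttaaacagaacaacagtgaagggcgga
Mmrn1 probe 1, chr6:60938883-60938942: tcctgtgagtctttccagtgtagaataaaa
Mmrn1 probe 2, chr6:60896017-60896076: aagtttaccttggatgagtagatcttctat
Gp1bb probe 1, chr16:18621107-18621166: ctggcgctgcgactgccgcctattgccgct
Gp1bb probe 2, chr16:18621717-18621776: ttatttctggccaggcggcagaattgtggt
Gp1bb probe 3, chr16:18621535-18621594: tcaataggcaaagtcttggatcagaggtgg
Selp probe, chr1:166079660-166079719: atgcctgctttaagatctcctgggtcttcc
Gp5 probe, chr16:30308347-30308406: gtgaaagtcccaataacaggctctactggg
Gp6 probe, chr7:4320351-4320410: acatcaccactagagccacagacatggaca
Positions are those of the whole probe in mouse build mm9, as the array files give them. The *Gp1bb*, *Gp5* and *Gp6* probes are on the minus strand and the others on the plus strand. Exon and UTR boundaries in mm9 were not used here, so the place of each probe within its gene is known only as its position along the transcript.

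The 10 genes did not move together. At the probe that stood for each gene, the brightest over both arrays, 4 genes were lower on the array labelled p38αΔ/Δ and 6 were higher. Over all 17198 genes, 52.4% were lower. Among the 4 was *Pf4*, with a log2 difference of −0.0031. No gene was lower by 2-fold or more, where 6.67% of all genes were, and 2 genes, *Gp5* and *Gp6*, were higher by 2-fold or more, where 4.11% of all genes were. *Gp6* was kept only through the array on which it is high. Among the 9 genes well above background on both arrays 1, *Gp5*, was higher by 2-fold or more. With normexp, another background correction that here adds 50 to every signal, none of the 10 was higher by that much. The median log2 difference was 0.31 for the 10 genes and 0.23 for those 9, beside −0.03 over all 17198 genes, whose quartiles were −0.38 and 0.33. The difference was larger in size than the spot SD of 0.13 for 9 of the 10 genes and larger than the software's own error for 8. Both quartiles over all genes also lie beyond 0.13 in size, so passing that SD does not set the 10 genes apart. The share of all genes beyond the software's error is not given, so the count of 8 does not set the 10 genes apart either. *Vwf* and *Selp* were the lowest, and *Gp5* and *Gp6* the highest. The levels of the 10 genes summed to 106 in p38α+/+ and 95.4 in the other array, and without *Itgb3*, which adds most to it, 54.3 and 48.9.

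**Figure D1:**
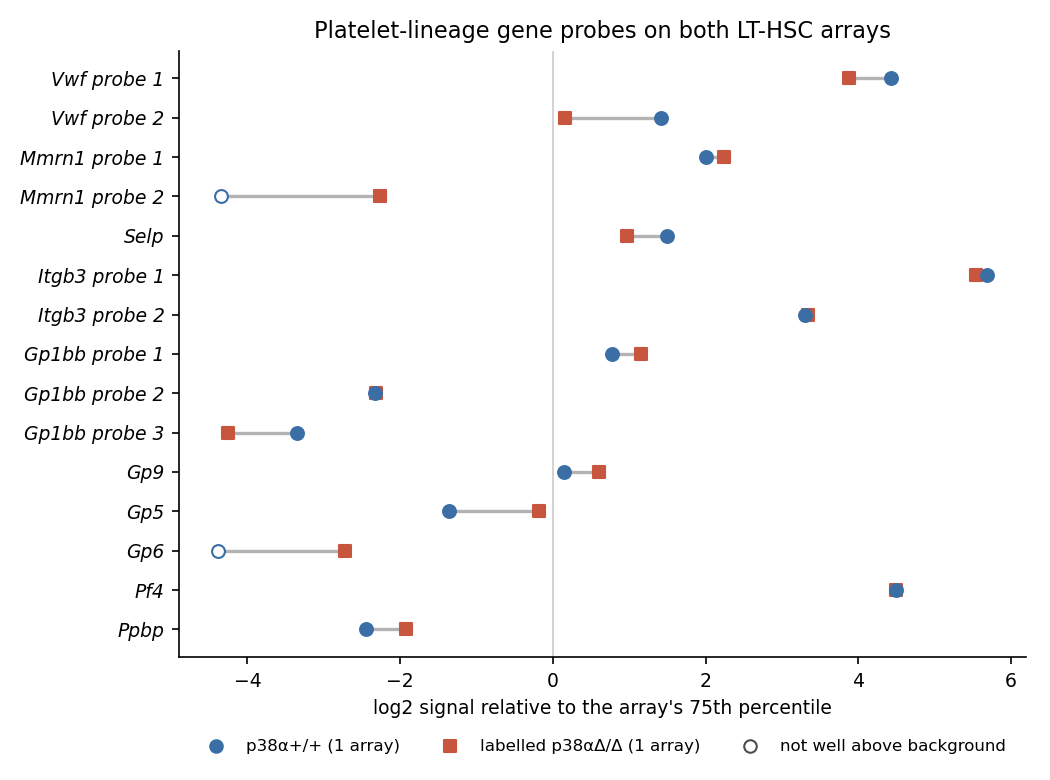
Scaled log2 level of each of the 15 probes (x axis) on the p38α+/+ array (circles) and the array labelled p38αΔ/Δ (squares), 1 array each, joined by a grey line. Open symbols mark the *Mmrn1* probe 2 and *Gp6* values on the p38α+/+ array that did not stand well above background, and the circle and square of *Pf4* cover each other at 4.49.

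The adhesive ligands come first. *Vwf* encodes von Willebrand factor, the large multimeric protein that platelets grip at sites of injury and that endothelial cells also make. Probe 1 read 3086 in p38α+/+ and 1694 in the array labelled p38αΔ/Δ, or scaled log2 levels of 4.43 and 3.88. *Vwf* was thus 1.46-fold lower, a log2 difference of −0.55. Probe 2, assigned to a shorter *Vwf* transcript and separated from probe 1 by 94.4 kb of the genome, had signals of 383 and 129, with scaled levels of 1.42 and 0.16. There the transcript was 2.39-fold lower (−1.26). Both probes were lower by more than the spot SD, but by different amounts, and the difference of 0.71 between them was exceeded by 35.3% of the 4546 genes with several probes above background on both arrays. Over all genes, 16.8% had a log2 difference below that of *Vwf* probe 1, and in the brightest of 3 equal groups of genes 9.47% had.

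*Mmrn1* encodes multimerin 1, a large carrier protein of platelet α-granules and endothelium that binds factor V. At probe 1 the signal was 576 and 544, and after scaling the levels were 2.01 and 2.24, a log2 difference of 0.23. This is larger than the spot SD and slightly above the software's error of 0.20. Probe 2, 42.8 kb away and assigned to another transcript, read 7.08 in p38α+/+, which did not count as well above background, and 24.0 in the array labelled p38αΔ/Δ. It was 4.22-fold higher as measured, a log2 difference of 2.08, which became 0.55 with normexp. *Vwf* and *Mmrn1*, the ligands of the group and both aged HSC markers, therefore went opposite ways.

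*Selp* encodes P-selectin, the granule membrane protein that moves to the surface of activated platelets and endothelium and binds leukocytes. It is the only one of the 10 genes whose probe was printed repeatedly, with 10 spots on each array. The spot signals ran from 384 through a median of 403 to 436 for p38α+/+, and from 205 through 228 to 245 for the array labelled p38αΔ/Δ. No spot of one array overlapped with the spots of the other. How often other repeated probes separate in this way was not counted. The scaled log2 level was 1.499 ± 0.05 (SD, 10 spots) for p38α+/+ and 0.97 ± 0.09 (SD, 10 spots) for the other array. The log2 difference was −0.52, with an SD of 0.10 between the spot-by-spot differences, and it was negative at 10 of 10 spots, from −0.64 to −0.35. *Selp* was 1.44-fold lower, and 17.8% of all genes had a lower difference. The repeated spots share the RNA, labelling and hybridization of their array, so they show how precisely each array read *Selp* and not how mice vary.

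**Figure D2:**
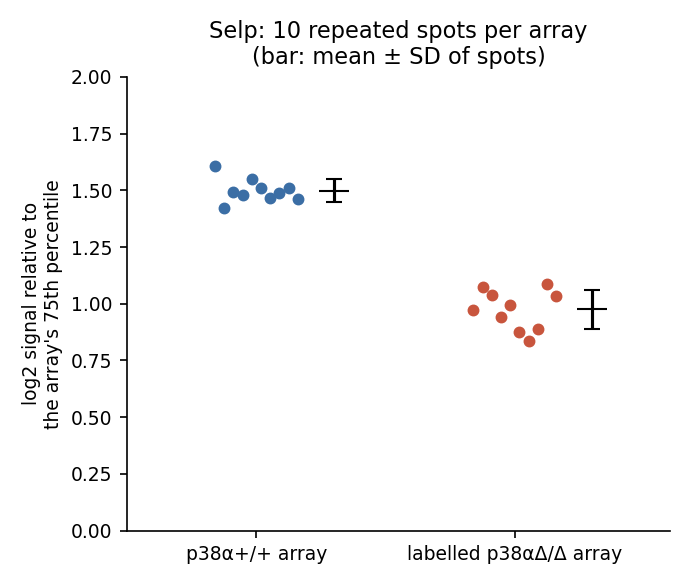
Scaled log2 level (y axis, starting at 0) of the 10 *Selp* spots on each array, with the mean and SD of the spots at their right. The lowest p38α+/+ spot is at 1.42 and the highest spot of the array labelled p38αΔ/Δ at 1.09.

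*Itgb3* encodes integrin β3, the partner of *Itga2b* in the fibrinogen receptor and of *Itgav* in the vitronectin receptor. Probe 1 (mm9 chr11:104531672-104531731) had a signal of 7417 and 5347, with scaled log2 levels of 5.69 and 5.54 and a log2 difference of −0.16. Probe 2 (chr11:104528625-104528684), closer to the transcript start, had signals of 1414 and 1171, scaled levels of 3.30 and 3.35 and a difference of 0.04. The probes thus gave opposite signs, and neither difference exceeded the software's error. The αIIb chain *Itga2b*, the CD41 gene, had a single probe with signals of 219 and 136 and a log2 difference of −0.37. It was well above background on both arrays. The CD41- gate of the methods reads protein at the cell surface, which a transcript level does not measure. *Itgav* was lower at its brighter probe, with a log2 difference of −1.08, but its other probe gave 0.15.

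The GPIb-IX-V complex is the receptor for von Willebrand factor, and its 3 members measured here were higher on the array labelled p38αΔ/Δ at their brightest probes. *Gp5*, which encodes the GPV subunit cleaved by thrombin, had signals of 55.6 and 101. Its scaled log2 level went from −1.37 to −0.18, so that it was 2.27-fold higher, a log2 difference of 1.18. Only 2.72% of all genes, and 1.80% of the middle brightness group, had a higher difference. With normexp the difference of *Gp5* was 0.69, which is below 2-fold. *Gp9*, which encodes GPIX (mm9 chr6:87729650-87729709), had signals of 158 and 175, scaled levels of 0.14 and 0.61 and a log2 difference of 0.47.

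*Gp1bb* encodes GPIbβ, which is disulfide-linked to GPIbα. Its brightest probe had signals of 245 and 257, with scaled levels of 0.77 and 1.16 and a log2 difference of 0.39. Probe 2 had signals of 28.6 and 23.03 and did not differ (0.00), and probe 3 went from 14.099 to 6.01, a difference of −0.91 with a software error of 0.38. The spread of 1.30 between the highest and lowest of these probes was exceeded by 12.3% of the genes with several probes, and with the mean of the 3 probes *Gp1bb* was lower (−0.17). The gene overlaps its neighbour *Septin5* by 593 bases in assembly GRCm38.p6, and the *Septin5* probe (mm9 chr16:18623011-18623070), on the same strand, had signals of 101 and 39.3, a 2.06-fold lower level (−1.04). The part of read-through RNA in the dimmer *Gp1bb* probes was not tested. *Gp1ba*, the ligand-binding chain of the complex and no member of the group, was slightly lower, with signals of 163 and 113 and a log2 difference of −0.20.

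*Gp6* encodes GPVI, the collagen receptor that signals through the Fc receptor γ chain. Its probe read 6.83 in p38α+/+, which did not count as well above background, and 17.5 in the array labelled p38αΔ/Δ, which did. The scaled levels were −4.39 and −2.72, and *Gp6* was 3.18-fold higher as measured, a log2 difference of 1.67 with a software error of 0.40. The median signal of the 308 negative control spots was 1.34 and 0.998. With normexp the difference shrank to 0.41, and *Gp6* belongs to the dimmest of the 3 brightness groups, whose log2 differences spread from −1.80 at the 5th percentile to 1.26 at the 95th. *Fcer1g*, its signaling chain, had signals of 209 and 154 and a difference of −0.13.

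The chemokines are packed in α-granules and lie side by side on chromosome 5, 2371 bases apart in GRCm38.p6. *Pf4*, encoding platelet factor 4 (CXCL4; mm9 chr5:91202275-91202334), had signals of 3230 and 2587, with a scaled log2 level of 4.49 on both and a log2 difference of −0.0031. *Ppbp*, encoding pro-platelet basic protein, the precursor of CXCL7 (chr5:91198970-91199029), had signals of 26.4 and 30.2. Its scaled levels were −2.44 and −1.93, a difference of 0.51, where dim repeated probes had an SD of 0.31. *Ppbp* was well above background on both arrays, and 74.5% of the dimmest group of genes had a lower difference. Of these neighbours, *Pf4* thus showed no difference beyond the spot error and *Ppbp* a small one.

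**Figure D3:**
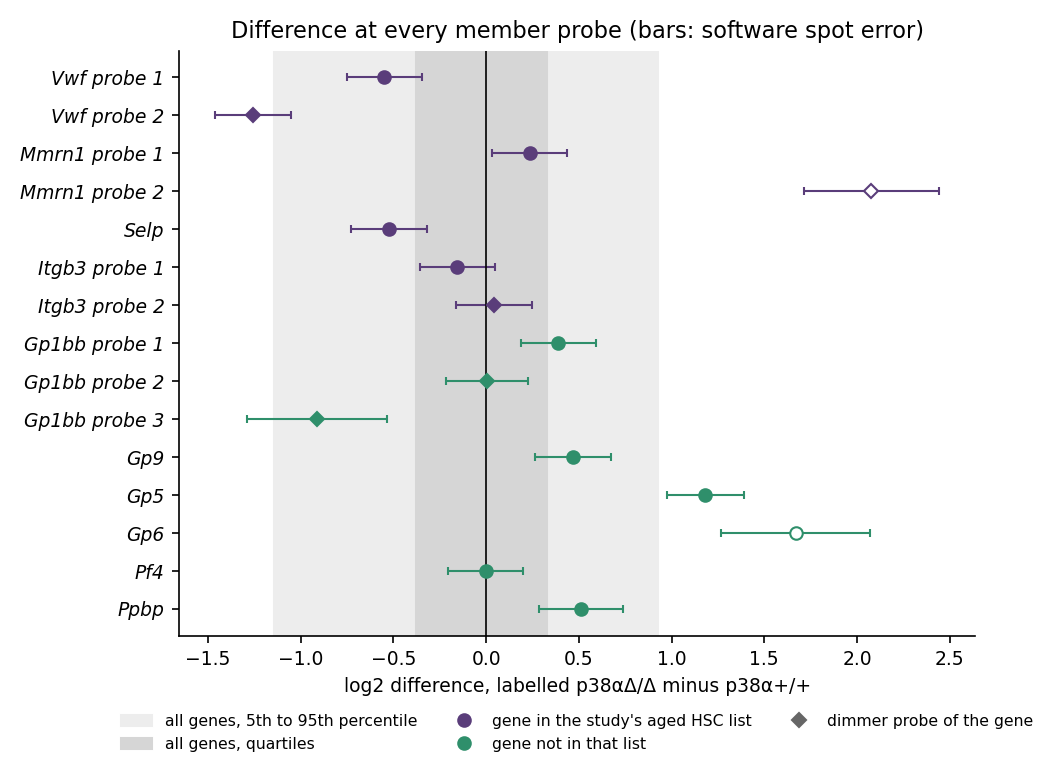
Log2 difference (x axis) at each of the 15 probes, with bars for the scanner software's error of the difference. Dark and light grey bands are the quartiles (−0.38 to 0.33) and the 5th to 95th percentiles (−1.15 to 0.93) over all genes. Purple marks genes in the study's aged HSC list and green the others. Open symbols are probes that did not stand well above background on the p38α+/+ array. *Gp5*, *Gp6* and *Mmrn1* probe 2 lie above the light band, and *Vwf* probe 2 lies below it.

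The members can be divided by whether the study lists them as aged HSC markers. Of the 4 aged markers, *Vwf*, *Selp* and *Itgb3* were lower and *Mmrn1* was higher, with a median log2 difference of −0.34. The *Itgb3* difference of −0.16 was below the software's error of 0.20, and its other probe gave 0.04. The aged HSC list as a whole had a median of −0.29, with 179 of 247 measured genes lower (72.5%), where 52.4% of all genes were lower. Of the other 6 genes only *Pf4* was lower, by less than the spot SD, and their median was 0.49, or 0.47 without *Gp6*. These counts are of 4 and 6 genes, the split is not independent of brightness, and the difference between them was not tested. The aged markers were all in the brightest group of genes, whose median was −0.09 and of which 58.9% were lower, and so were *Gp1bb* and *Pf4*, while *Gp9* and *Gp5* were in the middle group (median −0.04) and *Gp6* and *Ppbp* in the dimmest (0.08).

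Sequence in front of the genes was compared for the 8 of 10 members found in RefSeq's promoter table for GRCm38.p6. *Vwf* and *Itgb3* are not in that table. Megakaryocyte genes are classically controlled by GATA1 and ETS factors such as FLI1, so the 250 bases before each start were searched on both strands for GATAA, which reads TTATC on the other strand, and for GGAAG, which reads CTTCC. The first motif was found in 4 of 8 (*Mmrn1*, *Gp9*, *Gp6* and *Gp5*), where 22.6% of 32851 promoters held it. The other was found in 7 of 8, all but *Gp6*, where 64.1% held it. Both were found in *Mmrn1*, *Gp9* and *Gp5*, where 13.2% held both. The 100 bases before the start are shown for *Gp9* and *Gp5*, which were higher, for *Pf4*, which did not differ, and for *Selp*, which was lower, and they were picked with those values known. *Ppbp* (0.51) and *Gp1bb* (0.39) were also higher and hold no copy of the first motif in the 250 bases. They are written 5′ to 3′ in the direction of transcription with the motifs in capitals.
Gp9 upstream, chr6:87777970-87778069, plus strand: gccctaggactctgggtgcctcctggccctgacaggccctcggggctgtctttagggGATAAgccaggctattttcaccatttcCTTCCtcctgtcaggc
Gp5 upstream, chr16:30310782-30310881, minus strand: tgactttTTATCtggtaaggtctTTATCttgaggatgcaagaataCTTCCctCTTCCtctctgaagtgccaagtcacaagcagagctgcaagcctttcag
Pf4 upstream, chr5:90772335-90772434, plus strand: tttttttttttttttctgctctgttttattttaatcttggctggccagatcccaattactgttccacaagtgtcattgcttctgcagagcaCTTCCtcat
Selp upstream, chr1:164115164-164115263, plus strand: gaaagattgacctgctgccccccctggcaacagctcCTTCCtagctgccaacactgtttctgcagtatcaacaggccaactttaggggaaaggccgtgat
A match describes the letters only, and binding was not measured.

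The other genes of the pathway were read from lists written for this purpose. Of 90 genes for receptor partners, activation signaling, granule cargo, megakaryocyte transcription factors and late megakaryocyte functions, 89 were measured. On the array labelled p38αΔ/Δ 51 were lower (57.3%, beside 52.4% of all genes) and 38 higher. By 2-fold or more 6 were lower (6.74%, beside 6.67% of all genes) and 3 higher (3.37%, beside 4.11%), and the median log2 difference was −0.06. The pathway around the 10 members thus lay close to all genes, whose median was −0.03. Of the 13 receptor partners 7 were lower and 6 higher (median −0.06). *Itgb1*, a collagen receptor chain, was lower (−0.85), while *Treml1*, an α-granule receptor found in platelets and megakaryocytes, was higher (0.48), as were *Pecam1* and the thrombospondin receptor *Cd36* (0.28 each).

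Of 22 activation and signaling genes 14 were lower and 8 higher, with a median of −0.08. The thrombin receptor *F2rl3* (PAR4) had signals of 76.4 and 26.8 and was 2.29-fold lower, whereas its co-receptor *F2rl2* (PAR3) went from 278 to 417 and was 1.86-fold higher. *Apbb1ip*, the RIAM adaptor that leads to integrin activation, was lower (−0.74), and the calcium channel *Orai1* was higher (0.25). The kinase *Btk* had probes of opposite sign (0.18 at the brighter and −0.21 at the other). The adaptor *Lcp2* (SLP-76) was lower at its brighter probe (−0.83) and higher at the other (1.01). *P2ry12*, the ADP receptor, was singled out after its value was seen. Its signal of 62.4 in p38α+/+ stood beside one of 2.01, which did not clear the background, and it was at least 11.48-fold lower.

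Granule genes were evenly divided, with 10 of 20 lower and 10 higher (median 0.03). The secreted proteins *Pros1* (−0.62) and *Clu* (−0.57), both in the aged HSC list, were lower, and so was *Hps1* (−0.91), which is needed to form dense granules. *Serpine2*, a thrombin inhibitor, was 2.77-fold higher, with signals of 17.4 and 38.7. *Thbs1* (0.92) and coagulation factor *F5* (0.62), the ligand of multimerin, were higher too. *F13a1*, also expressed by monocytes and likewise chosen with its value in view, read 1.20 in p38α+/+, which did not clear the background, and 25.9 in the other array, at least 5.64-fold higher.

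Of 18 regulators 13 were lower and 5 higher, with a median of −0.18. *Nfe2*, which drives the last steps of platelet formation, had signals of 3782 and 1661 and was 1.83-fold lower, and *Ldb1*, a cofactor of GATA1 complexes, was 2.01-fold lower. *Gata1* was higher, with signals of 1451 and 1705 and a log2 difference of 0.55, and *Srf* differed by 0.15. *Ets1* (−1.04) and *Mafg* (0.97) each had another probe of the opposite sign. Of 16 measured late genes 7 were lower and 9 higher (median 0.02). *Tubb1*, the platelet-specific β1-tubulin, was 3.62-fold higher, but from a signal of 8.73 to one of 25.4, and *Alox12*, the platelet 12-lipoxygenase, was 2.45-fold lower. *Gng11* was lower (−0.31) and *Tpm4* higher (0.72). *Tbxas1* was lower at its brighter probe (−0.36) and higher at the other (0.66), and *Mylk* was higher at its brighter probe (0.41) and lower at the other (−1.66). Members of each group thus went both ways, as the 10 genes did.

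**Figure D4:**
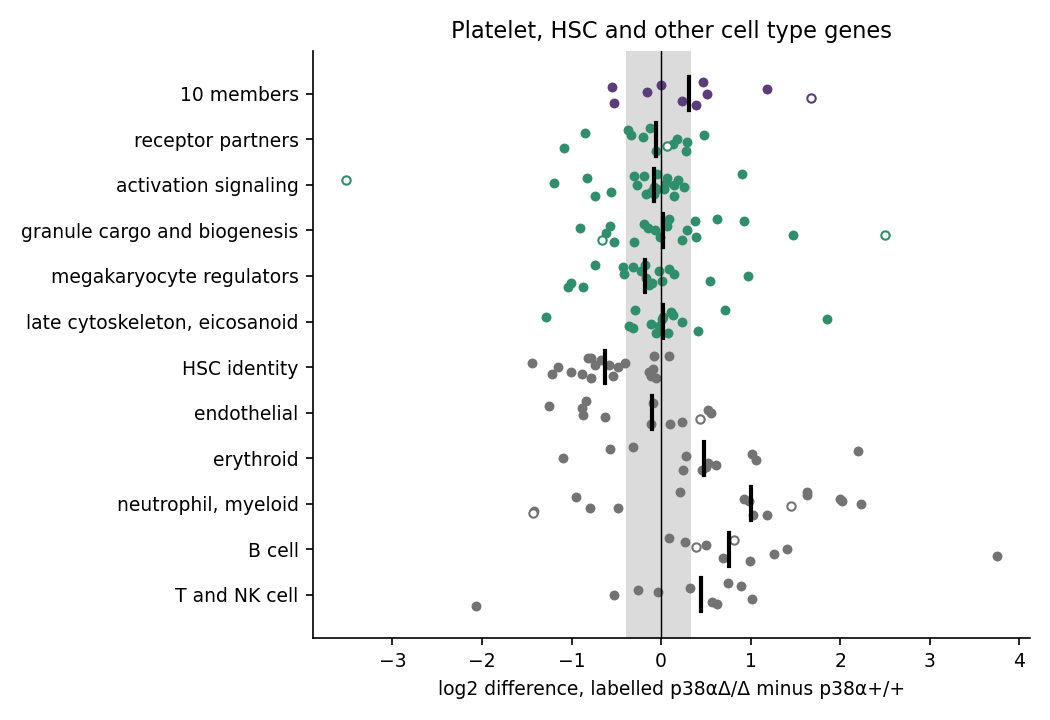
Log2 difference (x axis) of each measured gene at its brightest probe, in rows for the 10 members (purple), 5 platelet and megakaryocyte lists (green), and HSC identity and other cell type lists (grey). Bars are medians, the grey band spans the quartiles over all genes, and open points mark genes well above background on only 1 array. The platelet lists center near 0, the HSC list at −0.63 and the neutrophil list at 1.00.

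Other cells in a sort would bring their own transcripts, and in bulk RNA fewer cells of a type cannot be told apart from less RNA per cell. HSC identity genes were well above background on both arrays for 20 of 20 genes, and 19 of them were lower on the array labelled p38αΔ/Δ, with a median of −0.63 and a summed level of 259 on the p38α+/+ array and 209 on the other (205 and 158 without *Angpt1*). Endothelial cells also express *Vwf*, *Selp* and *Mmrn1*, and 12 of 15 endothelial genes were measured, 7 lower and 5 higher, with a median of −0.10 and a summed level of 33.0 and 31.1 (19.6 and 16.8 without *Aqp1*). The endothelial genes *Cdh5*, *Ecscr* and *Sox17* were not well above background on either array. Among the 16 neutrophil and myeloid genes 11 were higher and 5 lower, 8 and 2 of them by 2-fold or more, and among the 14 well above background on both arrays 7 were higher and 1 lower by that much. Their summed level was 38.7 and 60.6, and 9.83 and 27.1 without *Csf1r*. All 8 B cell genes well above background on both arrays were higher, and 2 more cleared it only on the array labelled p38αΔ/Δ. The summed level of these 10 was 4.098 and 19.5, most of it *Jchain*, without which it was 2.97 and 4.22. Of 12 measured erythroid genes 9 were higher, with a summed level of 95.3 and 93.2, and of 25.6 and 37.1 without *Car2*. T and NK cell genes were higher for 6 of 10 (22.3 and 27.9, and 10.7 and 13.4 without *Nkg7*). The genes left out of these sums were chosen with their values in view. The erythroid gene *Hbb-b1* and the T and NK genes *Cd3g*, *Cd3d* and *Ncr1* were not well above background on either array. The lower *Vwf* and *Selp* levels stood beside lower HSC genes. The 6 higher members stood beside mostly higher myeloid, B cell, erythroid, and T and NK cell genes. No member was linked to a cell type, and the part of other cells in the levels of the members was not tested.

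The values of the 10 genes were also computed under 11 other processing choices. *Vwf*, *Selp* and *Itgb3* were lower and *Mmrn1*, *Gp9*, *Gp5* and *Ppbp* were higher under each of them, and *Gp6* was higher under the 9 that keep it. *Selp* moved least, from −0.52 to −0.47. *Vwf* ran from −0.90 to −0.44 and *Gp5* from 0.69 to 1.21, and *Pf4* stayed between −0.09 and 0.12.

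**Figure D5:**
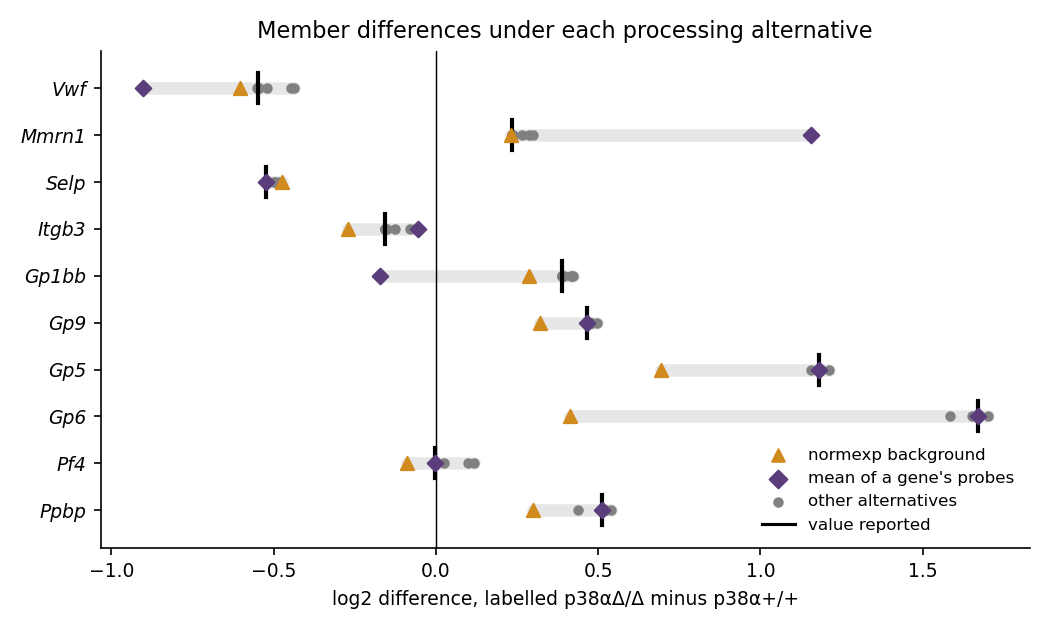
Log2 difference (x axis) of each member under the processing reported (black tick) and the alternatives (points on the grey range). Orange triangles are the normexp background correction, which brought *Gp5* to 0.69 and *Gp6* to 0.41, and purple diamonds the average of all probes of a gene, which put *Gp1bb* at −0.17.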

How the data were processed

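RNA of sorted LT-HSCs was labelled with Cy3 and hybridized to Agilent mouse arrays, 1 p38α+/+ and 1 labelled p38αΔ/Δ. RNA extraction, arrays and normalization were outsourced. The authors deposited the scanner intensity of 62976 spots per array, from which Agilent Feature Extraction 11.5.1.1 (the submitters' processing notes) had subtracted the background, with no normalization between the arrays. They also deposited normalized log2 values of 35795 probes, each column being the array's log2 signal minus a constant (7.16 and 6.84, within 0.01 for 35770 and 35767 probes), with medians of −0.79 and −0.79. Each of these probes stood well above background on both.

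Control spots and outlier spots were left out, log2 signals of repeated spots were averaged, and each array was set to its 75th percentile (7.16 and 6.85, log2). Probes were named through the file's gene name and RefSeq symbols of GRCm38.p6 (31778 of 55662 probes). Each gene was read at its brightest probe, by the mean of both arrays. The genes kept were the 17198 that stood well above background on one array or both (15630 on both), and a dim side below the lowest signal well above background was raised to it, so that its fold is a lower bound. Well above background were 67.9% and 69.0% of probes, and 0 spots were saturated. The number of arrays limits the precision. The members and lists were chosen with earlier results of these data known, and the lists came from general knowledge. Beside the members and their named partners, the 3 largest falls and rises of each platelet list among genes well above background on both arrays are named, and other genes are marked as singled out after their values were seen. The alternatives were normexp with an offset of 50, quantile normalization, other scalings over probes above background on both arrays, the authors' values, averaging all probes of a gene, the probe brightest on the p38α+/+ array, no floor, a stricter and no filter, and, chosen after seeing the data, a loess with span 0.3. The calculations were tested on simulated data. The tools were R 4.3.3 with limma 3.58.1, and Python 3.11.15 with pandas 2.3.3, numpy 2.4.6, matplotlib 3.10.9 and statsmodels 0.14.6.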

Additional observations from a re-analysis of the deposited data

How the results depend on the processing

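None of the 10 genes was at least 2-fold lower under any of the 11 alternatives. None of these read *Vwf* at its probe 2 alone, which was lower by more than 2-fold, at −1.26 as reported and −1.09 with normexp. The number at least 2-fold higher was 2 as reported, 0 with normexp, 1 with the authors' normalized values, 1 with the stricter filter that keeps only probes above background on both arrays, and 3 (with *Mmrn1* added) when all probes of a gene were averaged. The authors' table and that filter leave out *Gp6* by construction, and for normexp the cause was not tested. The median of the members ran from 0.23 to 0.36 and that of the 89 pathway genes from −0.11 to −0.0024. *Gp1bb* was reversed with the mean of its probes (−0.17), and *Pf4*, at −0.0031 as reported, had the same sign in 7 of 11. Over all genes, 1147 lower and 706 higher genes became 125 and 49 with normexp, 777 and 502 with the authors' values, and 786 and 499 with the stricter filter. With no floor, 1315 were lower and 1031 higher. No paired analysis was possible because each genotype has 1 array, and for the same reason no replicate could be left out. Signal over background limits *Gp6*, *Ppbp*, *Mmrn1* probe 2 and *Gp1bb* probes 2 and 3.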
